A study of Mus musculus with 24 samples.

Results

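The B cell receptor (BCR) reaches its signalling machinery through a small group of membrane proteins, and 9 of their genes were followed here over 4 genotypes and 3 stages of mouse B cells. The genes were the BCR signalling chains Cd79a and Cd79b, the complement receptor Cr2 and its tetraspanin partner Cd81, the CD20 gene Ms4a1, the leukocyte tetraspanins Cd37 and Cd53, and the surface markers Cd24a and Cd38. They were found by symbol in both raw count tables, all 9 were present, and they are 9 of the 27179 genes counted. All 9 passed the filter on low counts at every stage. All 9 genes were counted in every library, the lowest count being 59 reads of Cr2.

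RNA had been sequenced from lymph node B cells of C57BL/6 mice, sorted as CD3- B220+ CD138-. The 24 libraries are 2 of each genotype at each stage, and the study describes the 2 as biological replicates. Cells were either naive or had been cultured for 48 h with CD40L and IL-4 or with LPS and IL-4. Control mice carried the Cre transgene alone (Cd23T/+). PU.1 cKO mice, cKO for short, had in addition floxed Spi1 alleles (Spi1fl/fl Cd23T/+), and PU.1 SpiB DKO mice, DKO for short, also lacked Spib (Spi1fl/fl Cd23T/+ Spib-/-). SpiB KO mice had the floxed Spi1 alleles and no Spib, with no Cre (Spi1fl/fl Cd23+/+ Spib-/-). The Cre is driven by Cd23 (Fcer2a) regulatory sequence and acts from the transitional stage on, so recombination depends on a sequence whose own gene varied with genotype: in naive cells the mean level of Fcer2a was 1396 CPM (a count as a share of the scaled library total) in control, 843 CPM in cKO, 450 CPM in the SpiB KO and 175 CPM in DKO. Which animals gave which library is not stated in the labels.

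Igα and Igβ, the products of Cd79a and Cd79b, form the heterodimer that carries the BCR's signalling motifs and that surface immunoglobulin needs to reach the membrane. CD21, from Cr2, binds complement fragments on antigen and sits with CD81 in the B cell co-receptor. CD20, from Ms4a1, is the target of therapeutic antibodies in B cell cancers. CD37 and CD53 are tetraspanins, proteins with several membrane passes that organise other receptors in the membrane. CD24 is a glycosylphosphatidylinositol-anchored protein that is high on immature B cells, and CD38 is an ectoenzyme that consumes NAD and is high on mouse follicular B cells. PU.1 and SpiB are ETS family transcription factors that bind closely similar purine-rich DNA.

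The members lie on 7 chromosomes (GRCm38). Cd79a (Entrez ID 12518) lies at chr7:24897497-24901858, Cd37 (12493) at chr7:45233632-45239340 and Cd81 (12520) at chr7:143052750-143067930. Cd37 is 0.702 Mb from Spib, whose disrupted allele the SpiB KO and DKO mice carry, while Cd79a is 19.6 Mb away and Cd81 98.5 Mb. Within 1 Mb of Spib, 19 of 66 tested genes were called higher and 9 lower in naive SpiB KO than in control, beside 9.62% of all genes called. After CD40L 3 of 65 were higher and 2 lower, beside 0.134% of all genes. After LPS 13 of 62 were higher and 4 lower, beside 3.19%. Klk1, among the naive calls, is also in the plasmacytoid dendritic cell list below. Cd37 thus lies among genes that differ between these mice, and sequence linked to the Spib allele and the loss of SpiB cannot be told apart for it. The others are Cd79b (15985) at chr11:106311341-106314562, Cr2 (12902) at chr1:195136811-195176880, Ms4a1 (12482) at chr19:11249679-11266149, Cd53 (12508) at chr3:106758861-106790149, Cd24a (12484) at chr10:43579169-43584265 and Cd38 (12494) at chr5:43868809-43912374. A counted gene overlaps Cd81 and another overlaps Ms4a1 in the RefSeq table, and these neighbours reached at most 2.39 and 0.0162 CPM in any library, so reads in the overlaps are uncertain.

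RefSeq start-site windows (GRCm38.p6, 250 bases before the start and 50 after it) were at hand for 6 of the 9 genes, namely Cd79a, Cr2, Cd81, Cd37, Cd53 and Cd38. The windows of Cd37 and Cr2 are set on an annotated start inside the gene's span given above, that of Cd37 lying wholly within the span, and the other 4 on the end of the span itself. The letters GAGGAA, a core of the sequence that PU.1 and SpiB are known to bind, were searched on both strands. They occur in 28.3% of all 32841 such windows, and the longer GAGGAAGT, which contains them, in 3.2%. Cd37 and Cd53, 2 tetraspanin genes whose counts are described together below, each hold 2 matches of GAGGAA and 1 of GAGGAAGT. Cd79a holds 1 match of GAGGAA, and Cr2, Cd81 and Cd38 hold none. The letters GGAA are in 96% of windows, and GGAANNGAAA, the form in which an ETS factor binds beside an interferon regulatory factor, is in 2.72% of windows and in none of the 6. All 6 genes, with or without a match, were called in at least 1 comparison of genotypes below. The windows of Cd37 and Cd53 are shown as examples with matches, and that of Cd38 as an example without. Each is printed in the direction of transcription, Cd37 from the minus strand of chr7:45238790-45239089, Cd53 from the minus strand of chr3:106790100-106790399 and Cd38 from the plus strand of chr5:43868559-43868858. Capitals mark GAGGAA, or TTCCTC where the match is on the other strand.
Cd37: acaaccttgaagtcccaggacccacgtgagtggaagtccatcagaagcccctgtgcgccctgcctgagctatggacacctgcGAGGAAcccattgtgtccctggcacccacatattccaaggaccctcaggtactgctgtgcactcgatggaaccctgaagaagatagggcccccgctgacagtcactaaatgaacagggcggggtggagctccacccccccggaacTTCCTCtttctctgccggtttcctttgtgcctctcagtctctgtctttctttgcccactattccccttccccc
Cd53: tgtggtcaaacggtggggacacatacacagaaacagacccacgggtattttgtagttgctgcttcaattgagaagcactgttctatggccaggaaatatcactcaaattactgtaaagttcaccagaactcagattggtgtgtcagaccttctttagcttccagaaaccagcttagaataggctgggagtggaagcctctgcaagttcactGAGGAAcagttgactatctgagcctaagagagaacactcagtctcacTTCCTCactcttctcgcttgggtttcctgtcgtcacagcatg
Cd38: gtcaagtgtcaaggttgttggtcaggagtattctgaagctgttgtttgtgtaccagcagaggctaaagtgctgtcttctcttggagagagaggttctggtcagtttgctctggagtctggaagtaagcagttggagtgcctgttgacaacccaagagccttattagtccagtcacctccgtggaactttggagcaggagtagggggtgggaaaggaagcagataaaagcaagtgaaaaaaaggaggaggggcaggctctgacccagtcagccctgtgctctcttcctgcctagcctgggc
A match says only that these letters are in the window.

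Spi1 and Spib, the genes removed, were read first as a check of the labels. Spib was low in all SpiB KO and DKO groups, with means between 10.2 and 99.6 CPM where control had 1413, 462 and 244 CPM in naive, CD40L and LPS cells. Spi1 in naive cells was at 155 and 174 CPM in control, 59.5 and 53.2 CPM in cKO and 103 and 110 CPM in DKO. After CD40L and IL-4 it was at 84.9 and 108 CPM in control, 46.9 and 35.1 CPM in cKO and 32.5 and 25.6 CPM in DKO. After LPS and IL-4, however, Spi1 stood at 72 and 60.7 CPM in control, 44.2 and 41.2 CPM in cKO and 63.9 and 58.9 CPM in the libraries labelled DKO (log2 fold change against control -0.11, SE 0.10, adjusted p = 0.448). Naive DKO thus stood between cKO and control, above cKO by 0.92 on the log2 scale (SE 0.11, adjusted p = 0.000571). In the LPS libraries labelled DKO, Spib (15 and 11.9 CPM) and Fcer2a (215 and 182 CPM against 791 and 719 CPM in control) were low, as the label implies. Spib was also low in the LPS SpiB KO (18.1 and 14.3 CPM), so its level does not separate SpiB KO from DKO. In those SpiB KO libraries Fcer2a was at 472 and 431 CPM and Spi1 at 74.9 and 81.4 CPM, both above the libraries labelled DKO. The difference between these groups was not tested. Only exon 5 is floxed and the tables give 1 count per gene, so the count of Spi1 checks the deletion in part only. The study read the floxed exon from sequence coverage and describes it as partly kept in naive DKO cells and as removed in cultured ones, and exon coverage was not analysed here. Naive DKO is therefore not described below as a complete loss of both factors, and the LPS libraries are named by their label.

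Of the markers of other cells, a plasmacytoid dendritic cell (pDC) list summed to 238 to 360 CPM in naive control, 1846 to 2276 CPM in the SpiB KO and 2660 to 2813 CPM in DKO, with 8 of 8 genes called higher in each. A T cell list summed to 68.4 to 105, 384 to 445 and 576 to 608 CPM in the same groups, and a macrophage list to 9.56 to 17.1, 47 to 55.7 and 64.3 to 68.9 CPM. Within B cells, 7 genes of marginal zone and B1 cells summed to 480 to 488 CPM in naive control, 480 to 541 CPM in cKO, 806 to 825 CPM in the SpiB KO and 1048 to 1174 CPM in DKO, with 4 of 7 called higher in the SpiB KO and 6 of 7 in DKO. The 7 general B cell markers were detected in every group and ran the other way, at 5611 to 6968 CPM in naive control, 4854 to 5586 CPM in cKO, 4092 to 4875 CPM in the SpiB KO and 3918 to 4795 CPM in DKO. In cultured cells the pDC list summed to at most 96.8 CPM. The naive comparisons of SpiB KO and DKO carry these differences, and their part in them was not tested. In bulk samples, fewer cells of a type and less RNA per cell cannot be told apart. Library totals were 14231188 to 18194629 counts in naive cells, 9598674 to 61640683 after CD40L and IL-4 and 22757630 to 73658850 after LPS and IL-4. After CD40L only cKO replicate 2 was that deep, the other libraries having at most 11434235 counts.

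In control cells the 9 genes took a large share of the RNA before culture and a much smaller one after it. Every member was lower in CD40L cultures than in naive cells and every member was lower in LPS cultures than in naive cells, by factors from 1.55 to 41.36. The largest falls were of Cr2 and Cd38. Together the members made up 1.35 and 1.34% of all counts in the naive control libraries, 0.57 and 0.772% after CD40L and 0.352 and 0.302% after LPS. These are shares of a library, so more RNA from other genes lowers them too.

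Per length, on the deposited RPKM scale, which divides reads by gene length and library size, Cd79b (1946 to 2044 RPKM) and Cd79a (1885 to 2073 RPKM) were the most abundant members in naive control cells, with overlapping values. Cd37 (1335 to 1451 RPKM), Ms4a1 (1115 to 1156 RPKM), Cd53 (552 to 603 RPKM), Cd24a (368 to 420 RPKM) and Cd81 (211 to 247 RPKM) followed without overlap between neighbours. Cd38 (123 to 168 RPKM) and Cr2 (96.6 to 130 RPKM) were lowest and overlapped each other. After CD40L and IL-4, Cd79b alone led at 1366 to 1677 RPKM, and Ms4a1 (898 to 1190 RPKM) overlapped Cd79a (838 to 953 RPKM). After LPS and IL-4 the same 3 genes led, at 660 to 826 RPKM for Cd79b, 408 to 454 RPKM for Ms4a1 and 344 to 457 RPKM for Cd79a. Cr2 was the lowest member in both cultures, at 2.38 to 3.09 RPKM and 4.2 to 5.8 RPKM, the second range overlapping that of Cd38 (4.75 to 8.06 RPKM). The LPS libraries were normalized apart from the others, so the RPKM levels are compared within a stage only.

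For the stages themselves all 24 libraries were scaled together and a gene was called where its Benjamini-Hochberg adjusted p was under 0.15 and its fold over 1.5. The CD40L libraries were deposited apart from the naive and LPS libraries. In every comparison of stages given here, stage cannot be told apart from culture or sequencing run. From naive to CD40L cultures 9 of 9 members were called, all lower, where 48.8% of the 13684 genes tested were called in either direction. Cr2 went from 647 and 803 CPM to 15.2 and 20 CPM, a 41.36-fold fall (log2 fold change -5.37, SE 0.28, adjusted p = 7.34e-12). Cd38 went from 536 and 372 CPM to 49.3 and 77.8 CPM, a log2 fold change of -2.84 (SE 0.28). Cd24a went from 868 and 714 CPM to 119 and 132 CPM (-2.65, SE 0.21). The signalling chains fell unequally, Cd79a by 1.49 (SE 0.17) and Cd79b by 0.90 (SE 0.18) on the log2 scale. Ms4a1 had the smallest fall, from 3029 and 2536 CPM to 1472 and 2127 CPM (-0.63, SE 0.18, adjusted p = 0.00577). Ms4a1 was not called under quantile normalization (log2 fold change -0.13), nor with the replicate number as a block, nor without naive control replicate 1 or CD40L control replicate 1. Cd79b was not called under quantile normalization either (log2 fold change -0.37). The median over the 9 was -1.21, and over all genes 0.000.

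From naive to LPS cultures 9 of 9 members were again called lower, against 63.9% of all genes called. The log2 fold changes ran from -1.66 (SE 0.18) for Ms4a1 and -1.72 (SE 0.18) for Cd79b to -4.61 (SE 0.26) for Cr2 and -4.68 (SE 0.30) for Cd38. Cd53 fell 7.08-fold, Cd79a 5.97-fold, Cd24a 5.42-fold, Cd37 5.34-fold and Cd81 4.05-fold. Between the cultures, 8 of 9 members were called, against 41.2% of all genes. The 7 called lower after LPS than after CD40L were Cd79a, Cd79b, Cd81, Ms4a1, Cd37, Cd53 and Cd38, by 1.76-fold (Cd79b) to 3.57-fold (Cd38). Cr2 was the exception, 1.70-fold higher after LPS at 24.4 and 34.8 CPM (log2 fold change 0.76, SE 0.25, adjusted p = 0.0168). Its call was lost without CD40L control replicate 1 or LPS control replicate 2, and that of Cd79b without CD40L control replicate 2. Cd24a, at 127 and 165 CPM after LPS, was not called different (0.22, SE 0.20, adjusted p = 0.405).

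**Figure D1:**
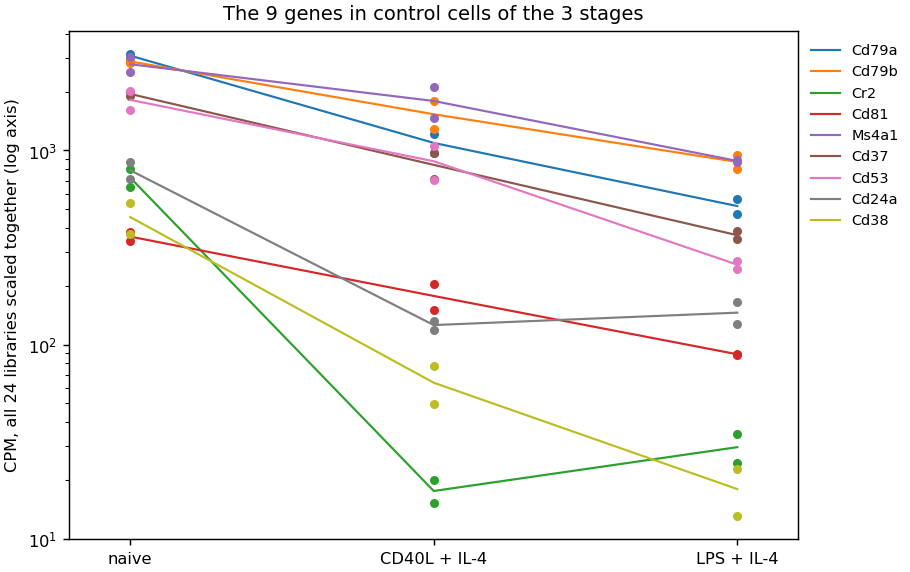
CPM of the 9 genes in the 2 control libraries of each stage (points, log axis, all 24 libraries scaled together), with lines through the group means. Every line starts highest in naive cells. Cr2 drops furthest, to 15.2 and 20 CPM after CD40L and IL-4, and Ms4a1 least.

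In naive cells no member was called in cKO or SpiB KO, and Ms4a1 and Cd37 were called lower in DKO, in which Spi1 was higher than in cKO. For cKO against control, 0 of 9 members were called where 10.7% of 12500 genes were, and for SpiB KO 0 of 9 where 9.62% were. In cKO, 2 members had an unadjusted p under 0.05, Cd24a (log2 fold change 0.39, SE 0.13, adjusted p = 0.104) and Cr2 (-0.36, SE 0.15, adjusted p = 0.189). In SpiB KO 1 did, Cd37 (-0.36, SE 0.13, adjusted p = 0.168). DESeq2 also called 0 in either comparison.

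In DKO 2 of 9 were called, both lower, where 21.2% of all genes were called. That is close to the share over all genes. Ms4a1 stood at 2786 and 2425 CPM in control, 2933 and 3092 CPM in cKO, 2327 and 2324 CPM in the SpiB KO and 1724 and 1541 CPM in DKO. Both DKO values lie below all 6 others, and the fall was 1.60-fold (log2 fold change -0.67, SE 0.12, adjusted p = 0.00437). Cd37 stood at 1841 and 1826 CPM in control, 1749 and 1617 CPM in cKO, 1557 and 1301 CPM in the SpiB KO and 1293 and 1086 CPM in DKO. Each DKO library was below every other library, though only just below the lower SpiB KO library, and the fall was 1.54-fold (-0.62, SE 0.13, adjusted p = 0.0107). The call of Cd37 was lost without DKO replicate 2 or under quantile normalization, and that of Ms4a1 without control replicate 1, in each case by its fold.

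A further 3 members passed on adjusted p but changed by less than 1.5-fold. Cd53 was at 1864 and 1549 CPM in control and 1306 and 1017 CPM in DKO (-0.56, SE 0.17, adjusted p = 0.0472). Cd81, at 312 and 364 CPM against 251 and 229 CPM, had a log2 fold change of -0.50 (SE 0.12, adjusted p = 0.0188), and Cd79b, at 2699 and 2694 CPM against 2285 and 2031 CPM, one of -0.32 (SE 0.11, adjusted p = 0.0723). The remaining 4, Cd79a, Cr2, Cd24a and Cd38, lay between -0.20 and 0.21. The member median was -0.32, beside 0.002 over all genes. Against cKO rather than control, 1 of 9 was called, Ms4a1 (-0.88, SE 0.12, adjusted p = 0.00121), where 12.9% of all genes were, and 2 without DKO replicate 1. Whether the change in DKO departs from the sum of the changes with either loss was tested as an interaction, called on adjusted p alone. It was called for 0 of 9 members and 0.936% of all genes, with Ms4a1 the nearest (-0.72, SE 0.17, adjusted p = 0.167) and the only member with an unadjusted p under 0.05.

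**Figure D2:**
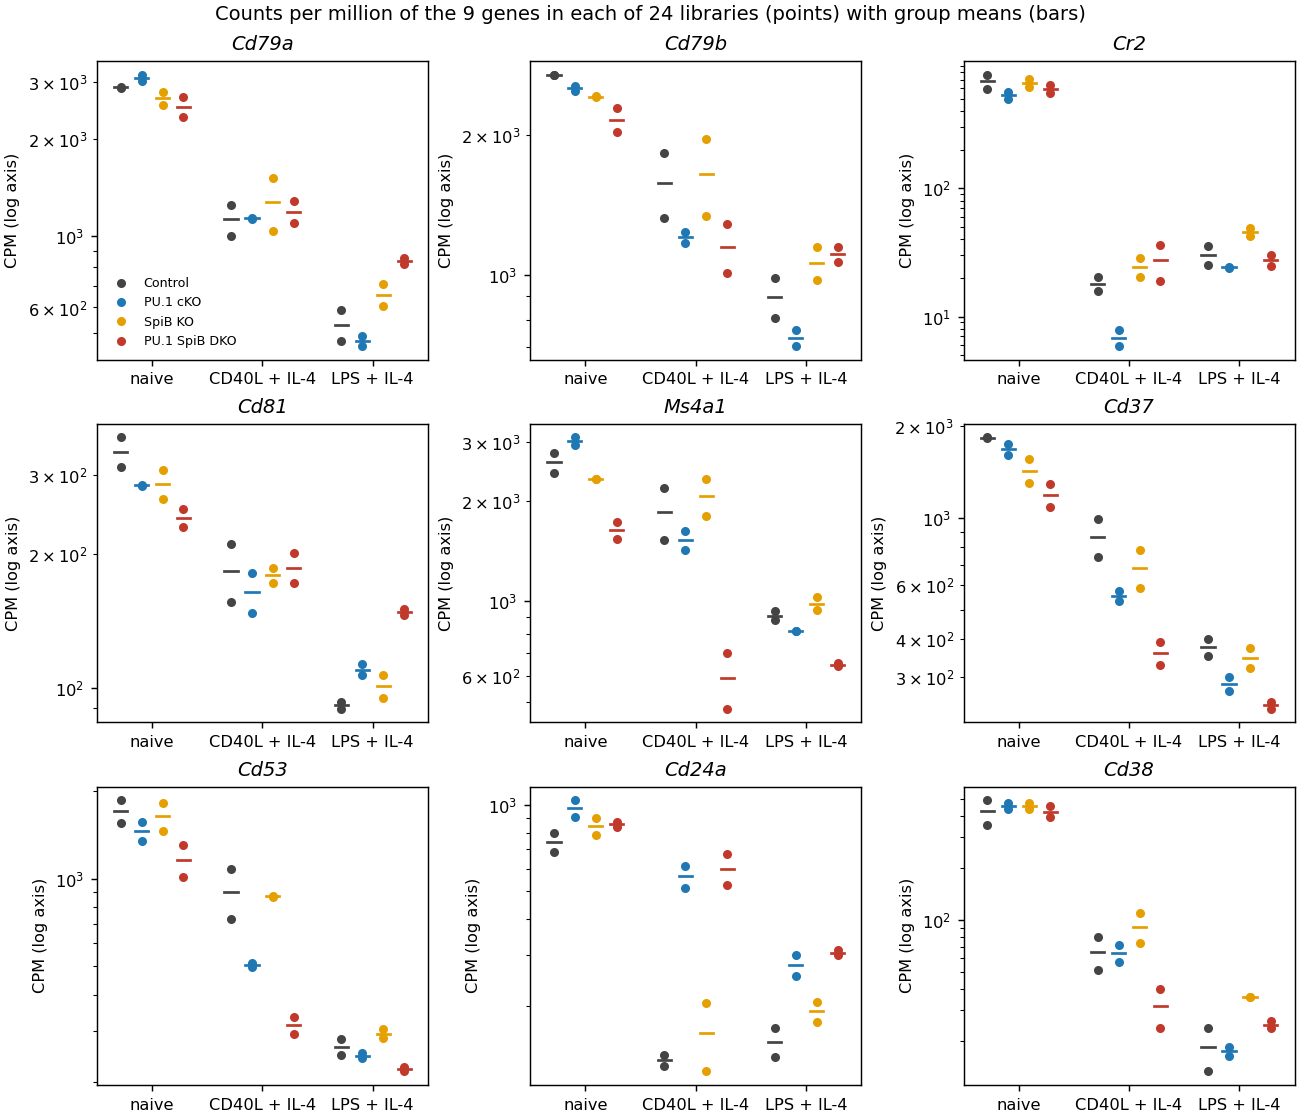
CPM of each gene (log axis, scaled over the 8 libraries of a stage) in every library, with bars at the mean of 2 libraries and colours for the 4 genotypes. The groups lie close together in naive cells. After CD40L and IL-4, Cd24a in cKO and DKO stands at 514 to 674 CPM against 123 and 135 CPM in control, and Ms4a1 in DKO at 478 and 703 CPM against 1525 and 2175 CPM.

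After CD40L and IL-4 the members differed most between genotypes. Cd24a rose 4.36-fold in cKO and 4.64-fold in DKO. Cd53 and Cd37 fell in both, and Ms4a1 and Cd38 fell in DKO. Cr2 fell in cKO and was not lower in DKO. SpiB KO changed none of the 9 past the thresholds. In numbers, 4 of 9 members were called in cKO (1 higher, 3 lower) where 13.5% of 12721 genes were, 0 of 9 in SpiB KO where 0.134% were, and 5 of 9 in DKO (1 higher, 4 lower) where 18.3% were. In SpiB KO 0 members had an unadjusted p under 0.05 in edgeR, and DESeq2 and limma-voom called 0 as well. The member medians were -0.28, 0.16 and -0.46 in cKO, SpiB KO and DKO, beside -0.010, -0.008 and 0.002 over all genes.

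Cd24a was at 123 and 135 CPM in control, 514 and 614 CPM in cKO, 118 and 204 CPM in the SpiB KO and 527 and 674 CPM in DKO. The 4 cKO and DKO libraries lie far above the other 4. The rise was 4.36-fold in cKO (log2 fold change 2.13, SE 0.25, adjusted p = 0.000419) and 4.64-fold in DKO (2.22, SE 0.25, adjusted p = 0.000218). The difference between these 2 genotypes was 0.09 (SE 0.24, adjusted p = 0.917). From naive to cultured control cells Cd24a had fallen 6.29-fold.

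Among the tetraspanins, Cd53 was at 728 and 1081 CPM in control, 515 and 498 CPM in cKO, 866 and 875 CPM in the SpiB KO and 336 and 293 CPM in DKO. The cKO libraries lie below control and the DKO libraries below those, without overlap. Its fall was 1.79-fold in cKO (-0.84, SE 0.19, adjusted p = 0.0208) and 2.87-fold in DKO (-1.52, SE 0.19, adjusted p = 0.000535). Cd37 was at 743 and 991 CPM in control, 533 and 575 CPM in cKO, 782 and 587 CPM in the SpiB KO and 390 and 328 CPM in DKO. Its order was the same, with SpiB KO reaching into the control range, and its fall was 1.57-fold in cKO (-0.65, SE 0.20, adjusted p = 0.0694) and 2.42-fold in DKO (-1.27, SE 0.20, adjusted p = 0.00186). The calls in cKO rested on single libraries: that of Cd53 was lost without control replicate 2 or cKO replicate 2, and that of Cd37 without control replicate 2 or either cKO library. Cd81, the tetraspanin of the co-receptor, stayed within 147 to 210 CPM in all 8 libraries and was not called in any comparison at this stage.

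Ms4a1 was at 1525 and 2175 CPM in control, 1625 and 1421 CPM in cKO, 2325 and 1797 CPM in the SpiB KO and 703 and 478 CPM in DKO. Only the DKO libraries stand apart, 3.13-fold below control (-1.65, SE 0.24, adjusted p = 0.00117). For Ms4a1 the interaction was called, at -1.52 (SE 0.33, adjusted p = 0.118), so the fall exceeded the sum of the changes in cKO (-0.28) and SpiB KO (0.16). It was 1 of 9 members with an interaction, where 1.17% of all genes had one. The call depended on single libraries. It was lost without control replicate 1, SpiB KO replicate 1, DKO replicate 2 or either cKO library, and 0 to 3 members were called as each library was left out.

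Cd38 was at 51.1 and 79.6 CPM in control, 71.6 and 57 CPM in cKO, 109 and 73.4 CPM in the SpiB KO and 40 and 23.7 CPM in DKO. Both DKO values are below the rest, a 2.05-fold fall against control (-1.04, SE 0.29, adjusted p = 0.0394), which was not called without control replicate 2 or DKO replicate 2. Its interaction of -1.49 (SE 0.40, adjusted p = 0.213) was not called.

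Cr2 was at 15.7 and 20.4 CPM in control, 5.91 and 7.8 CPM in cKO, 28.4 and 20.5 CPM in the SpiB KO and 18.8 and 36.2 CPM in DKO. The cKO libraries alone were low, 2.57-fold below control (-1.36, SE 0.31, adjusted p = 0.0212). In DKO the replicates were far apart and the difference from control was 0.61 (SE 0.30, adjusted p = 0.21), while against cKO Cr2 was 3.92-fold higher (1.97, SE 0.31, adjusted p = 0.00869). It was 1 of 4 members called between DKO and cKO, where 4.06% of all genes were. The other 3 were lower in DKO, Ms4a1 (-1.37, SE 0.24, adjusted p = 0.0145), Cd53 (-0.69, SE 0.19, adjusted p = 0.119) and Cd38 (-1.01, SE 0.29, adjusted p = 0.133). The call of Cd53 was lost with any of the 4 libraries left out, and that of Cd38 without either cKO library or DKO replicate 2.

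The control libraries at this stage differed from each other, replicate 1 being lower than replicate 2 for all 9 members. Plasma cell markers summed to 1456 to 1648 CPM in control, 2132 to 2278 CPM in cKO, 1365 to 1961 CPM in the SpiB KO and 2491 to 2966 CPM in DKO, and 4 and 5 of the 7 tested were called higher in cKO and DKO. B cell markers summed to 3891 to 4074 CPM in control and 2071 to 2513 CPM in DKO. The part of either in the changes above was not tested.

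**Figure D3:**
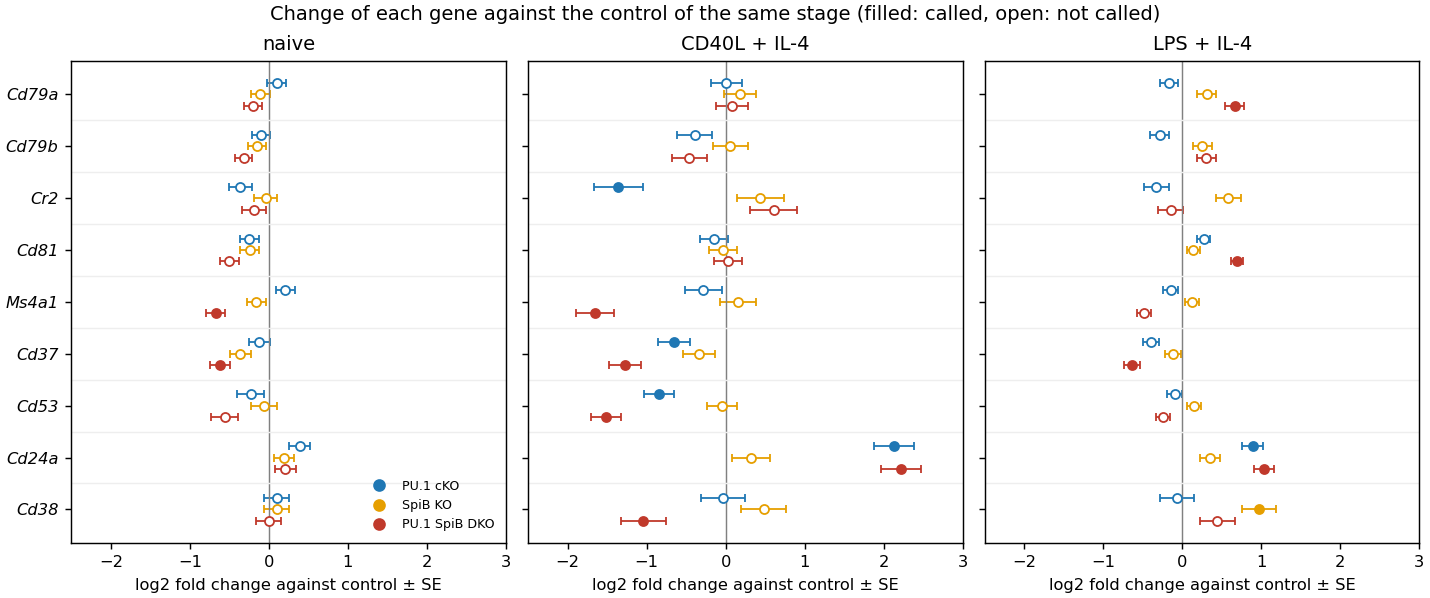
Log2 fold change of each gene against control of the same stage, with bars for the standard error, for cKO, SpiB KO and DKO. Filled points were called (adjusted p under 0.15 and over 1.5-fold). The widest spread is after CD40L and IL-4, from -1.65 for Ms4a1 to 2.22 for Cd24a in DKO, and after LPS and IL-4 the points of Cd79a and Cd81 lie to the right for the libraries labelled DKO.

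After LPS and IL-4, Cd24a again rose, in cKO and in the libraries labelled DKO, and Cd37 again fell in the latter, in which Spi1 was at 63.9 and 58.9 CPM against 72 and 60.7 CPM in control. Cd79a and Cd81 rose in these libraries, and neither was called higher in DKO at the other stages. Cd38 rose in SpiB KO. In cKO 1 of 9 members was called, against 10.5% of 12445 genes, in SpiB KO 1 of 9 against 3.19%, and in the libraries labelled DKO 4 of 9 (3 higher, 1 lower) against 20.2%. The member medians were -0.15, 0.25 and 0.30, beside -0.002, -0.001 and 0.008 over all genes.

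Cd24a was at 132 and 167 CPM in control, 254 and 299 CPM in cKO, 176 and 206 CPM in the SpiB KO and 312 and 299 CPM in the libraries labelled DKO. The groups do not overlap with control. The rise was 1.85-fold in cKO (log2 fold change 0.89, SE 0.13, adjusted p = 0.0021) and 2.04-fold in the libraries labelled DKO (1.03, SE 0.13, adjusted p = 0.000384). It was called with each library left out in turn and under every alternative run.

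Cd79a was at 589 and 474 CPM in control, 490 and 456 CPM in cKO, 606 and 711 CPM in the SpiB KO and 820 and 856 CPM in the libraries labelled DKO. The last are the highest 2 of the 8, 1.58-fold above control (0.66, SE 0.12, adjusted p = 0.00293), though not called without control replicate 2. Cd79b was at 986 and 809 CPM in control and 1068 and 1149 CPM in the libraries labelled DKO, a log2 difference of 0.30 (SE 0.12, adjusted p = 0.082) that did not reach the fold. Against cKO both chains were called, 2 of 9 members where 12.6% of all genes were, Cd79a at 0.83 (SE 0.12, adjusted p = 0.00302) and Cd79b at 0.60 (SE 0.12, adjusted p = 0.0106). The call of Cd79b was lost without cKO replicate 2 or replicate 2 of the libraries labelled DKO, or without the filter on low counts, or with all 24 libraries in 1 fit.

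Cd81 was at 93.1 and 89.9 CPM in control, 107 and 113 CPM in cKO, 94.9 and 107 CPM in the SpiB KO and 146 and 150 CPM in the libraries labelled DKO. These last stand clear of the other 6, 1.61-fold above control (0.69, SE 0.08, adjusted p = 0.000305), with each library left out in turn and under every alternative run. Cd37 was at 401 and 352 CPM in control, 299 and 269 CPM in cKO, 320 and 374 CPM in the SpiB KO and 236 and 248 CPM in the libraries labelled DKO. Cd37 fell 1.55-fold in the last (-0.64, SE 0.10, adjusted p = 0.00169), not called without control replicate 1 or under quantile normalization. In these libraries Ms4a1 (-0.49, SE 0.09, adjusted p = 0.00241), Cd53 (-0.25, SE 0.09, adjusted p = 0.0478) and Cd38 (0.44, SE 0.22, adjusted p = 0.147), like Cd79b above, passed on adjusted p but not on fold. The same held in cKO for Cd37 (-0.40, SE 0.10, adjusted p = 0.0342) and Cd81 (0.27, SE 0.08, adjusted p = 0.0758).

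Cd38 was at 23.7 and 13.3 CPM in control, 18.5 and 16.3 CPM in cKO, 35.8 and 35.9 CPM in the SpiB KO and 25.9 and 23.7 CPM in the libraries labelled DKO. SpiB KO was highest, 1.96-fold above control (0.97, SE 0.22, adjusted p = 0.0555), and the call was lost without either SpiB KO library, while without control replicate 2 the count was 2. Cr2 was at 25.4 and 35.2 CPM in control and 42.3 and 48.7 CPM in SpiB KO, just under 1.5-fold (0.58, SE 0.16, adjusted p = 0.12). In this culture same-numbered libraries were taken as pairs from their correlated deviations, as the labels do not state a pairing. In the fit blocked on that number Cr2 was called too (0.59, SE 0.11, adjusted p = 0.00851), making 2 of 9 members in SpiB KO where 5.04% of all genes were called. LPS values not named as blocked are from the fit without the block. The interaction was called for 0 of 9 members without the block (1.48% of all genes; Ms4a1, Cd79a, Cd53 and Cd81 had an unadjusted p under 0.05) and for 3 of 9 with it (10.3% of all genes). The 3 were Ms4a1 (-0.45, SE 0.10, adjusted p = 0.0375), Cd79a (0.51, SE 0.15, adjusted p = 0.0935) and Cd81 (0.29, SE 0.10, adjusted p = 0.131). DESeq2 called 2 without the block. Plasma cell markers at this stage summed to 783 to 812 CPM in control, 1346 to 1418 CPM in cKO and 1786 to 1858 CPM in the libraries labelled DKO, and their part in these changes was not tested.

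The signalling chains were also compared with each other inside each library, where scaling plays no part. In naive cells the ratio of Cd79a to Cd79b counts was 1.07 and 1.08 in control, 1.24 and 1.21 in cKO, 1.15 and 1.05 in the SpiB KO and 1.18 and 1.15 in DKO. In control it then dropped to 0.75 and 0.68 after CD40L and to 0.60 and 0.59 after LPS. After CD40L the ratio was 0.92 and 0.96 in cKO, 0.77 and 0.77 in the SpiB KO and 1 and 1.09 in DKO, cKO and DKO standing clear of the other 4 libraries. After LPS it was 0.64 and 0.65 in cKO, 0.62 and 0.62 in the SpiB KO and 0.77 and 0.75 in the libraries labelled DKO, which stand apart. The ratios are given as a description, and no test was run on them. On the quantile-normalized log2 RPKM scale the CD40L ratios were likewise higher in cKO and DKO, at -0.82 to -0.70 in control, -0.28 to -0.25 in cKO and -0.16 to -0.08 in DKO.

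**Figure D4:**
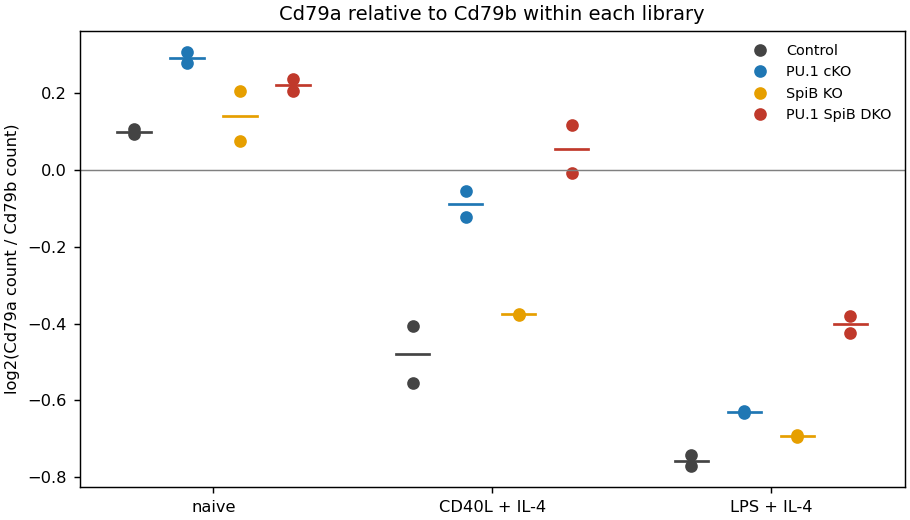
Log2 of the Cd79a count over the Cd79b count in each library (points) with group means (bars), by stage and genotype. The control points fall from 0.09 and 0.11 in naive cells to -0.41 and -0.55 after CD40L and -0.74 and -0.77 after LPS, and DKO points lie above control at each stage.

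Whether the change in DKO differed between stages was tested in 1 fit of all 24 libraries, on adjusted p alone. Between CD40L and naive cells it differed for 6 of 9 members, where 16.8% of all genes did. Cd24a changed more upward in culture, by 2.03 (SE 0.29, adjusted p = 8.43e-05), and Ms4a1, Cd53, Cd38 and Cd37 more downward, by -0.95, -0.95, -1.01 and -0.63. Cd81 differed by 0.54, being lower in DKO in naive cells and level with control after CD40L. Between LPS and naive cells 4 of 9 differed, where 29.6% of all genes did, all upward, Cd81 by 1.12 (SE 0.20, adjusted p = 0.000752), Cd79a by 0.80, Cd24a by 0.76 and Cd79b by 0.56. Between LPS and CD40L 9 of 9 differed, where 28.6% of all genes did. The change was higher after LPS for 7, from 0.50 for Cd79a to 1.40 for Cd38, and lower for Cr2 (-0.85) and Cd24a (-1.27). With the stricter adjusted p of 0.05 the counts were 3, 2 and 4. Single libraries moved them too: the count between CD40L and naive was 3 without naive control replicate 2. That between LPS and naive was 2 without naive control replicate 1 or LPS replicate 1 labelled DKO. That between the cultures was 4 without LPS control replicate 2 or CD40L DKO replicate 2, and 5 without CD40L control replicate 2. The gene-level count of Spi1 in DKO also differed between stages (103 and 110 CPM in naive cells, 25.6 to 32.5 CPM after CD40L and 58.9 to 63.9 CPM after LPS). Against control its log2 fold change was -0.63 in naive cells, -1.73 after CD40L and -0.11 after LPS. This count does not resolve the floxed exon, and its part in the differences between stages was not tested.

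Over the 24 libraries the genes whose log2 CPM followed a member most closely, among 8738 genes with a mean over 10 CPM, were Lmbrd1 for Cd79a (Pearson r = 0.993), Use1 for Cd79b (0.988), Plekha1 for Cr2 (0.985) and Tmbim6 for Cd81 (0.978). They were Ctso for Cd37 (0.988), Cd37 itself for Cd53 (0.983), 5031425E22Rik for Cd24a (0.946) and Tmem71 for Cd38 (0.994). The points share the step from naive to cultured cells, which sets most of these values. With the mean of each stage removed, Cd37 and Cd53 correlated at 0.88, Ms4a1 and Cd37 at 0.89, Ms4a1 and Cd53 at 0.89 and Cd79a and Cd79b at 0.76, while Cd24a ran against Cd53 (-0.78), Cd37 (-0.75) and Ms4a1 (-0.63). These are descriptions of 24 libraries that include the genotype changes given above.

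Genes of the same families and pathway were read from lists. Of 18 other tetraspanin genes, 13 to 15 were tested at a stage. In DKO against control 6 rose and 1 fell in naive cells, 5 rose and 1 fell after CD40L, and 6 rose and 1 fell in the libraries labelled DKO after LPS, with list medians of 0.47, 0.51 and 0.53 beside 0.002, 0.002 and 0.008 over all genes, of which 21.2%, 18.3% and 20.2% were called in these comparisons. Cd9, among the 6 that rose in naive DKO, is also one of the marginal zone and B1 genes above. Those named by the size of their change were Tspan2 (log2 fold change 2.10, SE 0.20, in the LPS libraries labelled DKO), Tspan4 (2.01, SE 0.37, after CD40L) and Tspan15, which had 0 counts in both naive control libraries and 12 and 19 counts in DKO, at least 3.54-fold higher when control is set at 3 counts per library. Cd37 was called lower at all 3 stages and Cd53 after CD40L, while Cd81 was called higher after LPS.

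Of 11 other MS4A genes, 8 were tested, and 1 rose and 2 fell in naive DKO, 0 and 3 after CD40L and 1 and 4 in the LPS libraries labelled DKO, beside the same 21.2%, 18.3% and 20.2% of all genes. The list medians were -0.06, -0.99 and -0.79. Ms4a4d, at 0.702 and 1.78 CPM in control and 0.324 and 0.191 CPM in DKO after CD40L, had the largest fall (-2.23, SE 0.88, adjusted p = 0.121). Ms4a7 rose in naive cells, from 0.14 and 0 CPM to 0.984 and 0.527 CPM, and Ms4a4a in the LPS libraries labelled DKO, from 0.216 and 0.234 CPM to 1.25 and 1.02 CPM. These 3 are scarce transcripts.

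Of 26 partners of the BCR complex and co-receptor, 1 of 25 tested rose and 6 fell in naive DKO, 0 of 24 rose and 15 fell after CD40L, and 4 of 25 rose and 6 fell in the LPS libraries labelled DKO. Over all genes 21.2%, 18.3% and 20.2% were called in these comparisons. The list medians were -0.41, -0.74 and -0.26, beside 0.002, 0.002 and 0.008 over all genes. Pik3ap1, the adaptor BCAP that links the BCR to PI3 kinase, was at 260 and 150 CPM in control and 59.8 and 49.7 CPM in DKO after CD40L (-1.91, SE 0.25, adjusted p = 0.000637). Ifitm3, of the family of the CD225 protein in the co-receptor, was at 4.76 and 5.6 CPM in control after LPS and 0.299 and 0.445 CPM in the libraries labelled DKO. Cd79a and Cd79b were not called lower in DKO at any stage, and nor were the partners outside the counts of falls above. Cd79b had a log2 fold change of -0.32 in naive DKO (adjusted p = 0.0723) and -0.46 after CD40L (adjusted p = 0.204). In the LPS libraries labelled DKO it was 0.30 (adjusted p = 0.082). A difference between the chains and their partners was not tested.

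Of the 4 genes close in function to CD38 and CD24, Siglecg, a sialic acid binding receptor known to recognise CD24, fell in DKO at every stage. After CD40L it was at 130 and 154 CPM in control, 98.7 and 90.7 CPM in cKO, 169 and 111 CPM in the SpiB KO and 15.4 and 19.2 CPM in DKO (-3.03, SE 0.23, adjusted p = 1.69e-05). In naive cells its log2 fold change was -1.05 (SE 0.12) and in the libraries labelled DKO after LPS -1.22 (SE 0.16). Siglech, itself one of the pDC markers above, rose in naive DKO (2.61, SE 0.32). Siglecg was thus low where Cd24a was high after CD40L in DKO, but in cKO, where Cd24a was as high, it stood at a mean of 94.7 CPM.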

How the data were processed

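RNA-seq had been done on 24 libraries, 4 genotypes at 3 stages with 2 libraries each, described by the study as biological replicates. The authors aligned reads to GRCm38/mm10 with Subread and counted them per gene with featureCounts (versions not given in the sources used here), and deposited raw counts and log2 RPKM values. The deposited log2 RPKM values are quantile normalized, separately for the LPS libraries, and served only to compare levels between genes. Whether counting used strand is not stated. Entries without a symbol (517 of 27179, 0.162% of counts) were kept in totals and tests.

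The counts were tested here with edgeR 4.0.16 in R 4.3.3 (TMM scaling, quasi-likelihood test, genes reaching 0.5 CPM in 2 libraries or more, two-sided, Benjamini-Hochberg adjustment over all genes). Each stage was fitted over its 8 libraries, and stages were compared in 1 fit of 24. A gene was called at an adjusted p under 0.15 and over 1.5-fold, and interactions and differences between stages at the adjusted p alone. SEs are derived from the test statistic. Values of other genes are also CPM of these fits. With 2 libraries a group, p-values rest on the spread shared across genes and groups. Scripts were tested on simulated data.

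Alternatives were DESeq2 1.42.0, voom with quantile normalization (limma 3.58.1, as in the study), no filter, an adjusted p under 0.05, other sets of libraries in the fit, a replicate block and leaving out each library. Deviations from group means correlated between same-numbered LPS libraries at 0.386 to 0.514 in all 6 pairs of groups, so the numbers were taken as pairing in LPS cultures only. All 9 members were named, and from each list of related genes up to 3 with the largest called change in DKO. Members, lists and rules were chosen with earlier results of these data known. Some genes that these rules name are not reported here.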

Additional observations from a re-analysis of the deposited data

Results flagged for a closer look

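The change of Ms4a1 in DKO after CD40L and IL-4 differed from the sum of the changes with either loss by -1.52 on the log2 scale (interaction, adjusted p = 0.118).

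Between stages, the log2 change from control to DKO differed as follows in the 24-library fit. From naive to CD40L cells it differed by 2.03 for Cd24a, -0.95 for Ms4a1, -0.95 for Cd53, -1.01 for Cd38, -0.63 for Cd37 and 0.54 for Cd81. From naive to LPS cells it differed by 0.76 for Cd24a, 0.56 for Cd79b, 0.80 for Cd79a and 1.12 for Cd81. From CD40L to LPS cells it differed by -0.85 for Cr2, -1.27 for Cd24a, 0.69 for Cd79b, 1.08 for Ms4a1, 1.19 for Cd53, 1.40 for Cd38, 0.50 for Cd79a, 0.56 for Cd37 and 0.58 for Cd81. The first 2 sets rest on the naive DKO libraries, in which Spi1 was at 103 and 110 CPM against 59.5 and 53.2 CPM in cKO. The last 2 rest on the LPS libraries labelled DKO, in which Spi1 was at 61.4 CPM against 66.4 CPM in control. The value of Cd79a between the cultures (adjusted p = 0.149) lay just inside the threshold.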

How the results depend on the processing

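Of the 86 member values with an adjusted p under 0.15, 0 changed direction under the alternatives run, and of the other 103, 40 did under at least 1, the largest of these being a log2 value of 0.39. Among values printed above, Cd38 in naive DKO, near 0, became 0.13 with quantile normalization and 0.01 with the replicate block and ran from -0.24 to 0.24 over the libraries left out in turn. After CD40L, Ms4a1 in SpiB KO ran from -0.07 to 0.44, below 0 without control or SpiB KO replicate 1, and Cd24a between DKO and cKO from -0.11 to 0.25, below 0 without cKO replicate 1 or DKO replicate 2. Counts of called members moved by over 1.5 times as follows. With DESeq2 the interaction was called for 1 member in naive cells, 3 after CD40L and 2 after LPS. With quantile normalization 1 member was called in naive DKO and 1 had an LPS interaction. Without the filter on low counts the interaction counts were 1, 3 and 2, and 1 member differed between the LPS libraries labelled DKO and cKO, as it did with all 24 libraries in 1 fit, where the CD40L interaction count was 3. At an adjusted p under 0.05 the counts were 2 for DKO against cKO and 0 for the interaction after CD40L, 0 for SpiB KO after LPS, and 3, 2 and 4 for differences between stages (CD40L and naive, LPS and naive, LPS and CD40L). With the replicate block the interaction counts were 2 in naive cells, 3 after CD40L and 3 after LPS, and SpiB KO after LPS had 2; in naive and CD40L cells, where same-numbered libraries correlated at 0.0918 to 0.25 and -0.0702 to 0.266, the numbers were not shown to pair libraries. Over the libraries left out in turn, counts ran from 1 to 3 for naive DKO against control, 1 to 2 against cKO and 0 to 1 for the naive interaction. After CD40L they ran from 2 to 4 for cKO, 4 to 6 for DKO, 2 to 3 for DKO against cKO and 0 to 3 for the interaction. After LPS they ran from 0 to 2 for SpiB KO, 3 to 4 for the libraries labelled DKO, 1 to 2 for these against cKO and 0 to 1 for the interaction. Differences between stages ran from 3 to 7, 2 to 3 and 4 to 9. Over all genes, quantile normalization moved the share of calls that were higher from 59.3% to 47.0% in naive DKO against control, from 76.8% to 58.4% in naive DKO against cKO, from 67.7% to 53.7% and from 72.4% to 59.5% in the same comparisons after LPS, and from 58.8% to 41.7% in SpiB KO after CD40L. The cause of these moves was not tested.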
